A study of Rattus norvegicus with 2 samples.

Results

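The inflammasome core and its cytokines were examined in the lumbar spinal cord (SC, L4-L6) of rats with chronic constriction injury (CCI). They comprise 10 genes, namely the sensors Nlrp3 and Nlrp1a, the adaptor Pycard, the caspases Casp1, Casp4 and Casp8, the pore-forming Gsdmd, the cytokines Il1b and Il18, and the IL-18 inhibitor Il18bp. These 10 genes were selected by name among the 18166 genes that had a probe set assigned to a single gene, and for a gene with several probe sets the one with the highest mean of both arrays was kept. All 10 were measured, each by 1 probe set. Adult male Sprague-Dawley rats of 180 to 200 g were used. In the CCI group the left sciatic nerve was loosely tied with 4 ligatures, in the Sham group the nerve was exposed without ligation, and tissue was taken on day 10. RNA from 3 rats was combined for each group, so that 1 Sham array and 1 CCI array (titled as the model) were compared. No allele or agent beyond this surgery is named for either group.

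An inflammasome is a protein complex that assembles inside a cell when a sensor such as NLRP3 detects damage or microbial products. The sensor recruits the adaptor ASC, encoded by Pycard, which clusters pro-caspase-1 so that the enzyme activates itself. Caspase-1 then cuts the precursors of IL-1β and IL-18 and cuts gasdermin D, whose freed fragment opens pores in the plasma membrane, a lytic form of cell death called pyroptosis. In the SC, microglia, the resident macrophages, are a known site of this machinery. Complex assembly and cleavage happen at the protein level, and the arrays measured mRNA only.

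Values are RMA (robust multi-array average) expression on the log2 scale, 1 value per group, so that no difference has an error and none could be tested. Because probe sets respond differently, levels were not used to call one gene more abundant than another. The summed linear signal of a list gives most weight to its brightest probe sets and was compared only between the arrays. Over 28879 probe sets the arrays ran from 1.72 to 13.2 in Sham and from 1.70 to 13.3 in CCI, and the differences of all genes had a median of -0.01 and an SD of 0.26. A rough background level was set at the 95th percentile of 1345 olfactory and vomeronasal receptor genes, at 4.44 in Sham and 4.36 in CCI. Of the receptor genes themselves, 4.76% differed by more than 1.5-fold. Of the markers listed for the tissue, 5 of 5 measured lumbar Hox genes and 17 of 17 neuron markers were above that level in both arrays. So were 9 of 9 astrocyte and 9 of 9 oligodendrocyte markers, while 3 of 4 measured forebrain genes were below it in both. However, 4 of 5 measured sensory ganglion and Schwann cell markers were also above it in both arrays. They include Trpv1, at 4.83 and 4.78, and Mrgprd, at 4.99 and 4.97, which were named after their values were seen. The level is rough, and a value above it does not by itself show that a gene is expressed in the tissue.

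Of the 10 inflammasome genes, 9 had a higher value in CCI than in Sham and 1, Il18bp, had a lower one. The 9 include Il1b, below the background level in each array, and Nlrp3, below it in Sham. Over all genes, 47.6% had a higher value and 52.4% a lower one. Casp1 (1.73-fold), Il18 (1.65-fold) and Pycard (1.57-fold) passed a threshold of 1.5-fold in the upward direction, as did 1.64% of all genes and 1.24% of the genes above the background level in both arrays. None passed it downward, against 1.14% of all genes. The member nearest below the threshold was Casp4, at 1.36-fold. The differences of the 10 genes ranged from -0.31 to 0.79 with a median of 0.37, or 1.29-fold, beside the median of -0.01 over all genes. These are descriptions of 2 RNA mixtures, and how far single rats differed cannot be seen.

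**Figure D1:**
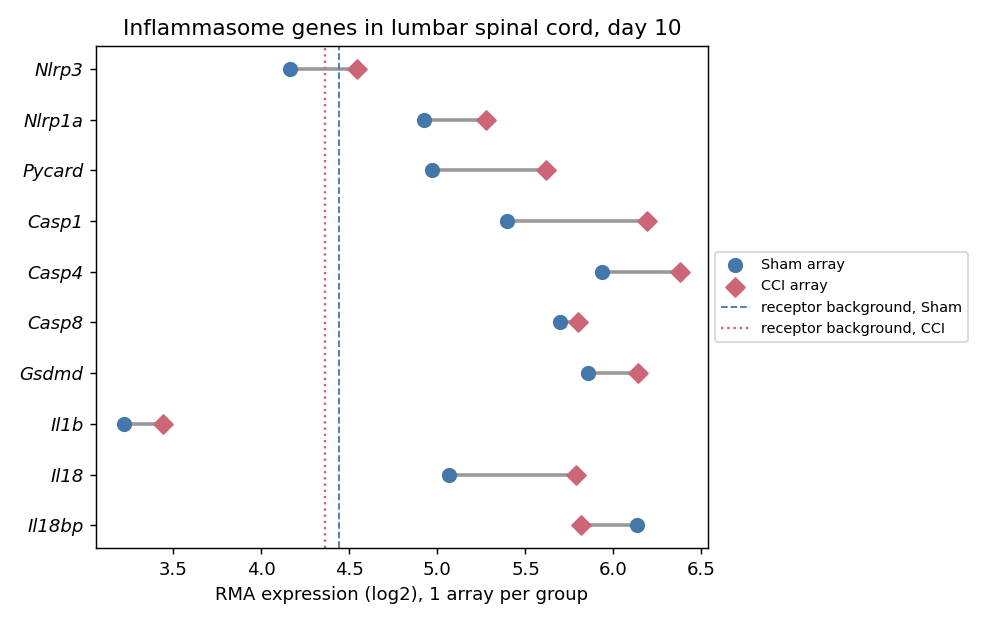
Log2 RMA expression of the 10 inflammasome genes (rows) in the Sham array (circles) and the CCI array (diamonds), with the receptor background level of each array as vertical lines. The CCI diamond lies to the right of the Sham circle for 9 genes, by up to 0.79 for Casp1, and to the left for Il18bp, while both values of Il1b lie below the background lines.

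Among the sensors, Nlrp3, which responds to potassium loss and many forms of cell damage, was at 4.16 in Sham and 4.55 in CCI. Only the CCI value lay above the background level, so the increase is at least 1.08-fold, a bound too small to establish a difference. Nlrp1a, a rat sensor that the lethal factor protease of anthrax can activate, had values of 4.92 in Sham and 5.28 in CCI, both above background, a 1.28-fold difference. Its gene lies next to the related Nlrp1b, which was at 4.41 and 4.83 and was named after its values were seen. Probes may not separate the paralogs Nlrp1a and Nlrp1b, which therefore do not count as separate observations. The difference of Nlrp1a, 0.35, lay at the 93.4th percentile of all genes.

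Pycard encodes ASC, through which several sensors reach caspase-1. Its value was 4.97 in the Sham array and 5.62 in the CCI array, a difference of 0.65 on the log2 scale. Of the 500 genes nearest in mean level over both arrays, 9 had a larger difference, and 2.20% were higher by more than 1.5-fold. Pycard was thus further above Sham than Nlrp1a.

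Of the caspases and gasdermin D, Casp1 stood highest and Casp8 lowest. Casp1, the protease that matures both cytokines, was at 5.40 in Sham and 6.19 in CCI. Its difference of 0.79 ranked 105th from the top among all genes, and 5 of the 500 genes nearest in level exceeded it. Casp4, the rat counterpart of mouse caspase-11 that responds to intracellular lipopolysaccharide without a canonical sensor, was at 5.94 and 6.38. Its difference of 0.44 was exceeded by 18 of the 500 nearest genes. Casp1 and Casp4 are neighbours on the same chromosome, and the next measured gene on that side, Casp12, named after its values were seen, was below background in both arrays at 4.08 and 3.93.

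Casp8, the initiator of death receptor apoptosis that can also process IL-1β and gasdermin D, was at 5.70 and 5.80. Its difference of 0.10 was exceeded by 150 of the 500 genes nearest in level, so that Casp8 was placed within the bulk of genes. Gsdmd, the pore-forming substrate, was at 5.85 and 6.14, or 1.22-fold higher, and 40 of its 500 nearest genes differed by more. Relative to Casp8 the value of Casp1 shifted by 0.69 between the arrays, and relative to Gsdmd by 0.51. Between the arrays the value of Casp1 thus shifted by more than that of its pore-forming substrate, and whether the genes differ in this was not tested.

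Of the cytokines and the inhibitor, Il18 was higher in CCI, Il18bp was lower and Il1b was below background in both arrays. Il18, which is made as an inactive precursor in resting macrophages and epithelia, was at 5.06 in Sham and 5.79 in CCI. Its difference of 0.72 was exceeded by 10 of the 500 nearest genes and by 138 of all genes. Il1b, whose transcription in macrophages usually depends on a priming signal, was at 3.22 and 3.44. Both values were below the background level, so no fold is given, and at this signal a change in Il1b mRNA was not detectable.

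Il18bp encodes a secreted decoy that binds mature IL-18 and blocks it from its receptor. It was at 6.13 in Sham and 5.82 in CCI, 1.24-fold lower, and 64 of its 500 nearest genes had a lower difference. The differences of Il18 and Il18bp were 1.04 apart on the log2 scale. The ratio of the cytokine probe set to that of its inhibitor was thus 2.05-fold higher in CCI. The ratio itself depends on the probes, and only its shift between the arrays can be read.

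**Figure D2:**
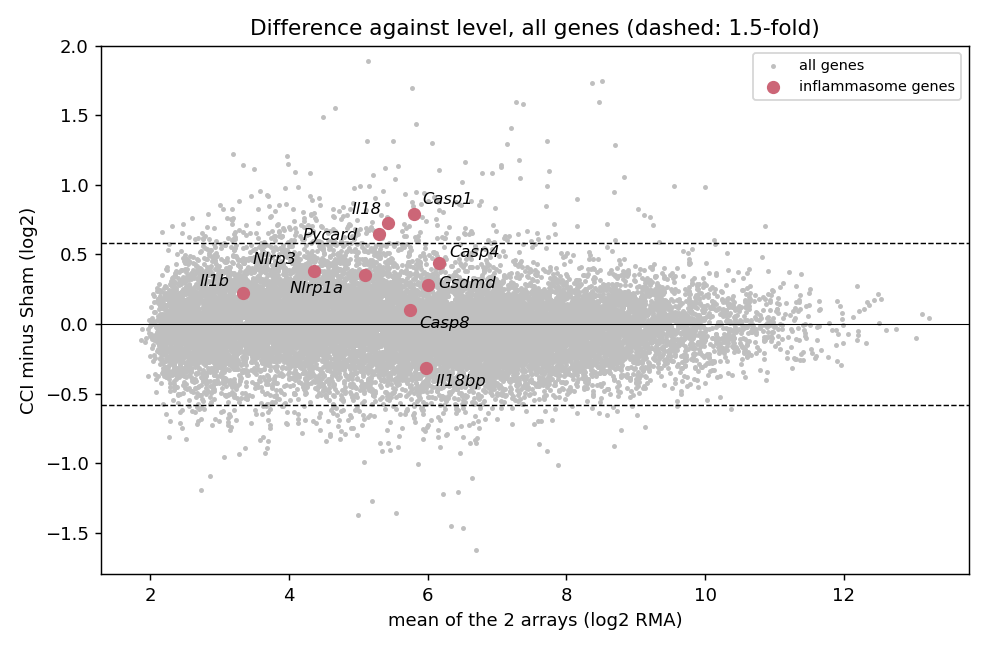
CCI minus Sham (log2) against the mean of both arrays (log2 RMA) for all genes (grey) and the 10 inflammasome genes (red), with dashed lines at 1.5-fold; 5 genes lie outside the vertical range of -1.8 to 2.0. Casp1, Il18 and Pycard lie above the upper line, Casp8 within the grey band and Il18bp below 0.

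The promoters of the members were read from RefSeq sequence of the GRCr8 build, in windows of 250 bases before to 50 bases after the gene start, to show the sequence before the genes that differed most. A window was found for 7 of the 10 genes and not for Casp4, Casp8 and Gsdmd. The 250 bases before the start are shown for the 3 genes that were higher by more than 1.5-fold. For Il18bp, the single gene with a lower value, 30 bases after the start are shown because they hold a match. Its 250 bases before the start held no match. Capitals mark matches to the motifs described below.
Casp1, chr8:10872580-10872829, plus strand: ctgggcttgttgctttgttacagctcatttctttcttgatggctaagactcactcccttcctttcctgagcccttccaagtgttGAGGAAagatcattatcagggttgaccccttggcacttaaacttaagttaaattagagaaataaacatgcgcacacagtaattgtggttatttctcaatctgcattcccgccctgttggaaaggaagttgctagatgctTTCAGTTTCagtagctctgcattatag
Il18, chr8:59801822-59802071, plus strand: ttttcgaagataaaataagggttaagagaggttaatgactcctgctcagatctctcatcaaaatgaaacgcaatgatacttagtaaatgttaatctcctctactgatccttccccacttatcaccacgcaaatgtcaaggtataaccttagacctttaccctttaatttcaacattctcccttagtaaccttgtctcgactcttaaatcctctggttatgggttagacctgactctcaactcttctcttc
Pycard, chr1:192033420-192033669, minus strand: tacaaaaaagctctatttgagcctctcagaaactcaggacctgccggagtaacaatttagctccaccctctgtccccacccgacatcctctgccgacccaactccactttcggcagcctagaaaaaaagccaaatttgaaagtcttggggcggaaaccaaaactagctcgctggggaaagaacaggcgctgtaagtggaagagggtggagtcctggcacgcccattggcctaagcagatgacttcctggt
Il18bp, chr1:165786906-165786935, minus strand, after the start: gggattcctagttcagagaGAAAGTGAAag

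The motifs were searched on both strands and could overlap one another. They were chosen after the promoter sequences were seen, so counts among the 7 windows are descriptions and not a test. The letters GAAANNGAA, found in interferon-stimulated response elements, occurred in 2 of the 7 windows, those of Casp1 (bases -27 to -19 from the start, on the opposite strand) and Il18bp (bases 40 to 48 after the start), and in 9.71% of all 33469 windows. Casp1 and Il18bp, which share these letters, differed in opposite directions between the arrays, by 0.79 and -0.31. The letters GAGGAA, part of sites of the myeloid factor PU.1, occurred at Casp1 (-166 to -161) and Nlrp3 (-73 to -68) and in 27.6% of all windows. TTNNGCAA, letters of a C/EBP site, was found among the 7 only in the Il1b window, at bases 34 to 41 after the start. It occurred in 10.6% of all windows. TGANTCA of AP-1 was found among the 7 only in the Il18 window, after the start, and in 7.33% of all. No window of the 7 held the NF-kB consensus, which was present in 7.51% of all. A match describes letters and not a bound site, and a missing match says only that those letters are not in this window.

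Around these 10 genes, 94 genes of the same pathway were listed in 10 groups, of which 84 were measured. Past 1.5-fold, 5 of the 84 were higher and 1 was lower, with 51 higher and 33 lower by any amount and a median difference of 0.04. Both values were below the background level for 21 of the 84, and with values raised to the background level 3 of the 5, namely Clec7a, Il18rap and Mefv, still passed. By share, 5 of 84 stands beside 1.64% of all genes, and the lists were drawn up with earlier results of these data known.

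Other sensors showed no shared direction. Of 10 measured, 7 were higher, with a median of 0.04. However, 3 of the 10 were below background in both arrays and 1 in the Sham array only, which limits this count. Mefv, which encodes the sensor pyrin, was at 4.63 and 5.25, or 1.53-fold higher and past the threshold. Nlrx1, a mitochondrial relative that dampens innate signalling, was at 6.26 and 5.74, or 1.44-fold lower.

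The factors that act on NLRP3 were close to Sham, with 0 of 11 past 1.5-fold and a median of 0.02. Nek7, the kinase that binds NLRP3 and permits its assembly, was at 9.32 and 9.67, or 1.27-fold higher. P2rx7, the ATP-gated channel whose opening lets potassium leave the cell, was at 6.59 and 6.40, or 1.15-fold lower. Of the 5 other caspases measured, none passed 1.5-fold. Casp6 was at 5.47 and 5.79, and Casp14 was below background in both arrays, at 3.32 and 3.64. Of the 5 genes of other gasdermins and membrane rupture, none passed either. Gsdme, a gasdermin cut by caspase-3, was at 6.79 and 6.59, and Gsdma was below background in both arrays, at 3.33 and 3.59.

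The receptors held the second largest difference of the pathway after Clec7a. Il18rap, the accessory chain that IL-18 needs to signal, was at 4.46 in Sham, just above the background level, and at 5.78 in CCI, 2.49-fold higher. The ligand-binding chain Il18r1, named after its values were seen, was below background in both arrays, at 3.23 and 3.35. Sigirr, a receptor that damps IL-1 family signalling, was at 4.51 and 3.93, at least 1.11-fold lower with the CCI value below background. Of the 10 receptors 5 were higher and 5 lower, with a median of -0.08. However, 4 of the 10 were below background in both arrays and 2 in the CCI array only, so this split says little. Il18rap had the largest difference of the 10.

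Among the other IL-1 family ligands, 7 of 8 were below background in both arrays. The exception was Il33, an alarmin held in nuclei of glia, at 7.15 and 7.48, or 1.26-fold higher. Il1rn, the receptor antagonist of IL-1, was at 3.36 and 4.01, both below background, although its measured difference passed the threshold. Like Il1b, the 7 ligands below background could not be compared at this signal.

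Signalling molecules below these receptors did not move together. Myd88, the adaptor that IL-1, IL-18 and most Toll-like receptors share, was at 6.01 and 6.49, or 1.40-fold higher. Irak3, an inhibitory kinase relative in the same cascade, was at 6.29 and 5.90, or 1.31-fold lower, and 0 of the 9 genes passed 1.5-fold. In the caspase-8 and necroptosis complex, 0 of 8 passed. Mlkl, which ruptures the membrane in necroptosis, was at 4.81 and 4.32, at least 1.36-fold lower. Zbp1, a sensor of Z-form nucleic acids, was at 4.48 in Sham, just above the background level, and at 4.87 in CCI, or 1.31-fold higher.

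For priming, 6 of 11 genes were higher with a median of 0.22, and 1 passed 1.5-fold. Of the 11, 1 was below background in both arrays and 2 in the Sham array only, so count and median depend partly on values below background. Tlr2, a receptor for bacterial lipopeptides, was at 3.98 and 4.68, and because the Sham value was below background its increase is at least 1.19-fold. Tlr4, the lipopolysaccharide receptor, was at 5.51 and 5.81, or 1.24-fold higher. Of the 7 measured genes in the receptor axis that the study follows, Clec7a was at 3.79 and 6.49, at least 4.16-fold higher, and Card9, its adaptor, was at 5.09 and 4.77, or 1.25-fold lower. The study took up Clec7a partly from these arrays, so its direction is not independent evidence.

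**Figure D3:**
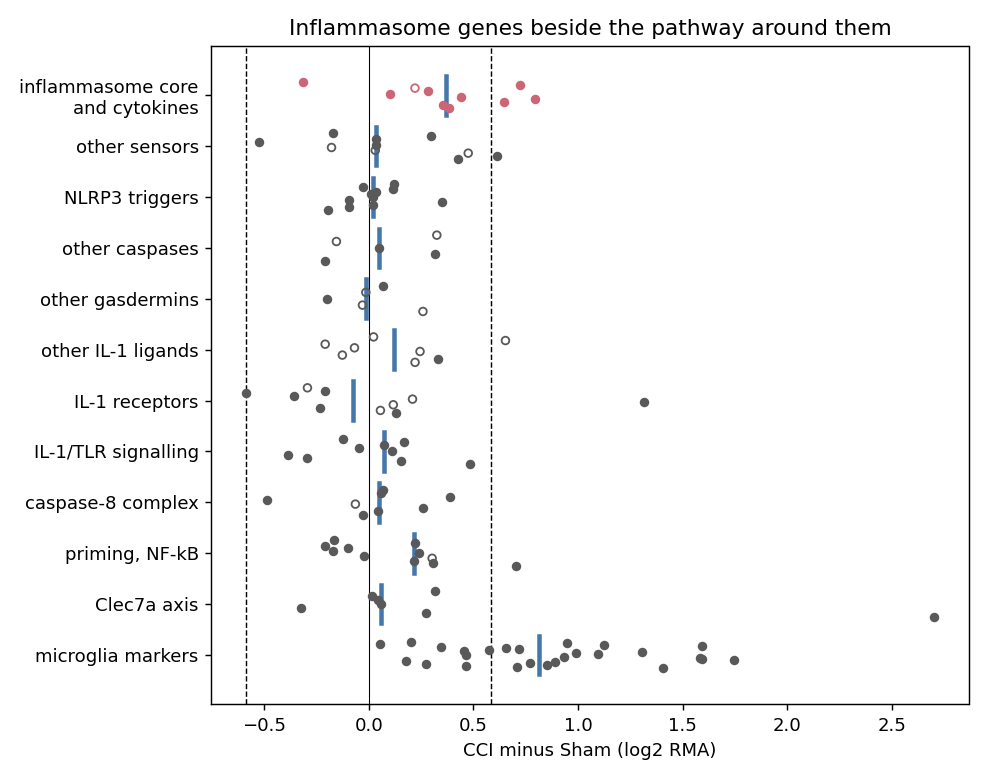
CCI minus Sham (log2 RMA) for each gene (points) of the inflammasome list (red), the 10 pathway groups and the microglia markers (grey), with blue bars at the list medians, dashed lines at 1.5-fold, and open points for genes with both values below the background lines. The inflammasome genes have a median of 0.37, the pathway groups have medians from -0.08 to 0.22, and the microglia markers have a median of 0.81. Medians include genes with values below background.

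The listed microglia and macrophage identity markers were higher in CCI, as were 9 of the 10 inflammasome genes, counting Il1b and Nlrp3, which had values below background. Perivascular and meningeal macrophage markers, listed apart, were lower in 7 of 8. All 26 measured microglia and macrophage identity markers had higher values in CCI, against 47.6% of all genes. Of the 26, 17 passed 1.5-fold upward, against 1.64% of all genes. Their median difference was 0.81, and their summed linear signal was 5168 in Sham and 9391 in CCI, 1.82-fold higher. Each of the 26 exceeded the background level in at least 1 array. Aif1, which encodes Iba-1, was at 6.50 and 7.91, and C1qa was at 7.64 and 9.38. In tissue RNA, more cells of a type and more RNA per cell cannot be told apart, and the part of microglia in the inflammasome differences was not tested.

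Set among these 26 markers, the 8 inflammasome genes above background in both arrays lay below the marker median. Casp1 was exceeded by 13 of the 26 markers, Il18 by 14 and Pycard by 17. Casp1 lay 0.02 below the marker median, Il18 0.09 below and Pycard 0.17 below. Casp4 and Nlrp1a were exceeded by 21 markers each, Gsdmd by 22 and Casp8 by 25. Nlrp3 and Il1b have no exact place in this order, because the Sham value of Nlrp3 and both values of Il1b were below background. Il18bp was lower than all 26.

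**Figure D4:**
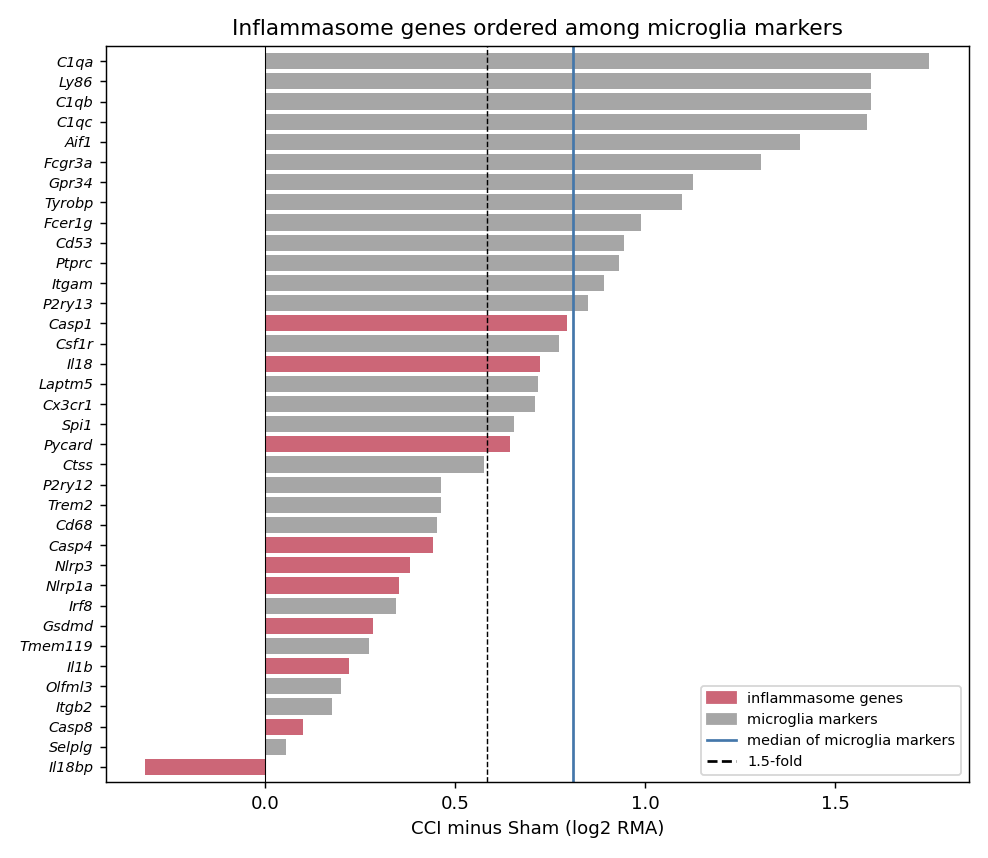
CCI minus Sham (log2 RMA, bars from 0) of the 10 inflammasome genes (red) and 26 microglia markers (grey) in order of size, with the marker median (blue line, 0.81) and 1.5-fold (dashed). Casp1, Il18 and Pycard lie among the markers just below their median, and Il18bp is the only bar below 0; the bar of Nlrp3 rests on a Sham value below background and that of Il1b on 2 such values.

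Markers of other leukocytes differed from this. Of 15 neutrophil and monocyte markers, 10 were below background in both arrays, among them S100a8, S100a9, Mpo and Elane, and the list had a median of 0.08. Its summed signal was 595 in Sham and 970 in CCI, a rise that rests largely on Plac8 and Lyz2. Past 1.5-fold were 3 of the 15, Plac8, Lyz2 and Ngp. Ngp was below background in both arrays, at 3.00 and 3.66. Plac8 was at 5.76 and 7.93 and Lyz2, which macrophages also express, was 1.52-fold higher, and these 7 genes were named after their values were seen. Of 11 lymphocyte markers, 7 were below background in both arrays and 0 passed 1.5-fold, with summed signals of 182 and 202. Perivascular and meningeal macrophage markers were lower in 7 of 8, with a median of -0.22 and summed signals of 250.1 and 224. Neuron markers were lower in 17 of 17 with a median of -0.15, and 2 passed 1.5-fold downward, Chat at 6.78 and 6.03 and Gad1 at 8.47 and 7.82, which were named after their values were seen. Rbfox3, which encodes NeuN, was at 9.57 and 9.42. Gfap was at 11.21 and 11.57 and Mbp at 12.34 and 12.52, and astrocyte and oligodendrocyte lists had medians of 0.00 and 0.09. Endothelium markers had a median of -0.24 and sensory ganglion and Schwann cell markers one of -0.06. The part of these cell types in the inflammasome differences was not tested.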

How the data were processed

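Lumbar SC RNA of 3 rats per group was mixed and hybridised to Affymetrix Rat Gene 2.0 ST arrays, 1 for Sham and 1 for CCI. The deposited log2 values were produced by the authors with RMA, which corrects background, equalises the distributions of the arrays and summarises probes, so that differences of weak genes are compressed and a shift common to most genes is removed. The sources used here did not name the genome build behind the annotation. Of 28879 probe sets, 18511 were assigned by the platform annotation to 1 gene, 575 to several and 9793 to none. Symbols were updated through Entrez IDs in a RefSeq table (GRCr8) for 18394 of the 18511.

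CCI minus Sham was computed with pandas 2.3.3 and numpy 2.4.6. With 1 array per group no test, error or p-value was possible, since precision is limited by the number of arrays. Calls use 1.5-fold, without a P threshold. Where one value did not exceed the receptor background, the fold is a bound against that level. Where neither value exceeded it, none is given. The members and lists were chosen with earlier results of these data known. All 10 members are named, with the genes of each pathway list past 1.5-fold or, where fewer than 2 were, the 2 with the largest difference, and the cell type markers Aif1, C1qa, Gfap, Rbfox3 and Mbp, and other names are marked. The motifs were chosen after the promoter sequences were seen. The alternatives were 2-fold, a floor at the median level, removal of a lowess trend (statsmodels 0.14.6, span 0.3, tested on simulated data), the mean of all probe sets, median centring, and raising values to the background level.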

Additional observations from a re-analysis of the deposited data

How the results depend on the processing

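The count of 3 members past 1.5-fold was unchanged after subtraction of the lowess trend and after median centring, with medians of the 10 members from 0.33 to 0.38. The mean of probe sets and raising values to the background level could not change it, since each member has 1 probe set and Casp1, Il18 and Pycard were above background in both arrays; raising gave a median of 0.32. Past 2-fold, 0 members and 2 of the 84 pathway genes (Clec7a and Il18rap) remained, against 44 higher genes of 18166. With the floor at the median level of 5.83, only Casp4, Gsdmd and Il18bp were left, with 0 past 1.5-fold, 2 higher, a median of 0.28 and 0 of 32 pathway genes past the threshold, because Casp1 (mean level 5.79), Il18 (5.43) and Pycard (5.29) lay under the floor. Raised to the background level, Il1b turned to -0.074, which is only the gap between the background levels of the arrays, and 3 pathway genes passed in place of 6. No replicate could be left out. No paired analysis was possible because each group had 1 array. Il1b, and Nlrp3 in Sham, are limited by signal near background.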

Other observations

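The genes beside the members on their chromosomes, in the gene order of RefSeq GRCr8, were read as a description of their surroundings. Of 90 measured genes within 5 places of a member, 1 passed 1.5-fold upward and 0 downward, with a median difference of 0.06. That gene was Itgam, 2 places from Pycard, which encodes the CD11b chain of a microglial integrin and was at 5.68 in Sham and 6.57 in CCI. Itgax, 3 places from Pycard, was at 4.05 and 4.52, with the Sham value below background. Beside Casp1, the glutamate receptor gene Gria4 was at 9.37 and 9.13, and Pdgfd, 3 places away on the side of Casp4, was at 7.09 and 6.54. On both sides of Il18, Pts was at 6.35 and 6.67 and Sdhd at 8.56 and 8.65. These neighbours were named after their values were seen.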
